A study of Mus musculus with 13 samples.

Results

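Transcripts of 10 genes that write, copy, protect or remove DNA methylation were followed through the last step of mouse oocyte maturation. The genes were chosen by symbol: Dnmt1 and Uhrf1, Dnmt3a, Dnmt3b and Dnmt3l, Dppa3 and Zfp57, and Tet1, Tet2 and Tet3. All 10 were found among the 18939 genes of the count tables and the 49686 genes of the FPKM table. Each of the 13 RNA-seq libraries was made from 1 single oocyte of a C57BL/6 female, 3 to 4 weeks old and primed with PMSG for 48 h, and the zona pellucida was removed before lysis. Every oocyte had received FBL–GFP and H2B-mCherry mRNA by injection and had spent 6 h in 10 μM Cilostamide, an inhibitor that holds oocytes at the germinal vesicle (GV) stage. The pattern of the nucleolar protein FBL then sorted GV oocytes into surrounded nucleolus (SN) and non-surrounded nucleolus (NSN) types. The groups held 3 SN GV oocytes, 3 NSN GV oocytes, 4 MII oocytes matured in vitro from SN GV oocytes (SN-MII) and 3 matured from NSN GV oocytes (NSN-MII). No uninjected oocyte was among them, and only oocytes that reached MII stood for that stage. The labels do not tie oocytes to animals. Every p-value below sets a difference between groups against the spread between single oocytes, which are taken as independent.

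Methylated cytosines are set down in growing oocytes by the Dnmt3a enzyme with its partner Dnmt3l, and are copied at DNA replication by Dnmt1, which Uhrf1 guides to half-methylated sites. In the early embryo Tet enzymes oxidise methylated cytosine, while Dppa3 and Zfp57 are known to guard parts of the maternal genome, Zfp57 at imprinted regions. Transcription is largely silent in SN oocytes and during maturation, when stored mRNAs are translated, lose or gain poly(A) tail, or decay. The SMART-seq2 protocol primes on poly(A) tails, so a change in mRNA amount and a change in tail length cannot be told apart in these values. The values are also scaled within each library. A rise or fall below is therefore relative to the other transcripts and not an amount per oocyte.

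Total counts per library lay between 7140416 and 8846287. The third NSN-MII library stood apart, with the fewest genes detected (11593) and the largest share of counts in its 10 top genes (12.1%), so results that rest on it are given with and without it. All 13 oocyte markers were detected in every group, with a summed level of 22668 to 25534 CPM (counts scaled to a common library size) in SN GV, 26248 to 31180 in NSN GV, 20909 to 23613 in SN-MII and 17439 to 18460 in NSN-MII oocytes. The 17 cumulus and granulosa cell markers summed to 61.7 to 92.5 CPM in SN GV, 67.6 to 75.7 in NSN GV, 101 to 133 in SN-MII and 101 to 187 in NSN-MII oocytes. Of these, Amh, Amhr2, Foxl2, Inhbb, Ptx3, Tnfaip6 and Fst had 3 counts or fewer in every library. Cyp19a1 led the sum in every group, followed by Nr5a2 and Kitl in either order. It stood at 37.8 to 67.3 CPM over the GV oocytes and at 77.0 to 158 CPM over the MII oocytes. The part of these cells in the results below was not tested.

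Levels were compared between genes on the FPKM scale, which is per transcript length. Dppa3, the maternal protection factor also called Stella, stood first in every group, with a mean of 2502 FPKM ± 199 (SD, n = 3) in SN GV, 2670 ± 632 (n = 3) in NSN GV, 3378 ± 450 (n = 4) in SN-MII and 3532 ± 669 (n = 3) in NSN-MII oocytes. It ranked 10, 10, 9 and 8 in these groups among all 18939 genes. Zfp57, the zinc finger protein of imprint protection, came second among the 10 genes everywhere, at 1525 FPKM ± 189 in SN GV and 836 ± 315 in SN-MII oocytes, and the libraries of both genes lay apart from those of the gene next in order. At GV the order went on with Dnmt1, Uhrf1, Dnmt3l, Dnmt3a, Tet3, Tet1, Dnmt3b and Tet2 in both oocyte types. The libraries of Dnmt3a and Tet3 overlapped there, as did those of Tet1 and Dnmt3b, and in NSN oocytes also those of Dnmt1 and Uhrf1. At MII the order after Zfp57 was Uhrf1, Dnmt1, Tet3, Dnmt3a, Dnmt3l, Dnmt3b, Tet1 and Tet2 in both types. Dnmt1 overlapped with Tet3 in both types, Tet3 with Dnmt3a and Dnmt3a with Dnmt3l in SN-MII oocytes, and Tet1 with Tet2 in NSN-MII oocytes. Tet2 was close to the lower end throughout, with means of 0.333 FPKM in SN GV and 1.63 FPKM in NSN-MII oocytes.

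Because stored mRNAs are handled through their 3′ ends during maturation, the ends of the annotated 3′ UTRs were read from the GENCODE M21 annotation of GRCm38, the build also called mm10. Letters searched on the transcript strand in the last 100 bases were the poly(A) signals AATAAA and ATTAAA and the cytoplasmic polyadenylation letters TTTTAT and TTTTAAT, which can overlap each other. A poly(A) signal was found in 9 of the 10 genes, all but Dnmt3l, against 81.7% of 10837 genes. The cytoplasmic polyadenylation letters were found in 5 of the 10, Dnmt1, Dnmt3a, Tet1, Tet2 and Tet3, against 20.1% of those genes. The windows of these 5 are shown first, followed by Dnmt3b and Zfp57, a gene that rose and a gene that fell with none of the letters. Capitals mark the letters found, and both kinds overlap in Tet2 and Tet3.
Dnmt1, chr9:20907227-20907256, minus strand: TTTTATatgttgtaatatttcttcaaaata
Dnmt3a, chr12:3914389-3914418, plus strand: TTTTATtttcgctataaatagagcttcaat
Tet1, chr10:62804584-62804613, minus strand: actttgtgggtggtataaAATAAATTTTAT
Tet2, chr3:133463702-133463731, minus strand: tgataacgccatgtgagtgtTTTTAATAAA
Tet3, chr6:83362399-83362428, minus strand: tctttaaaatattgtgggtgTTTTAATAAA
Dnmt3b, chr2:153687684-153687713, plus strand: gcccagagtttacctttctggttgATTAAA
Zfp57, chr17:37010563-37010592, plus strand: ccaccccttacccccaccccacaaAATAAA
In Dnmt1 and Dnmt3a the poly(A) signal began 20 and 21 bases after the capitals and ran past the end of the window, so its first letters stand there in lower case. The ends were read from a single annotated coding transcript per gene. Those of Dnmt3a, Tet1 and Tet3 have 9685, 14369 and 10904 bases. The lengths implied by the deposited values, described below, were at most 3014, 1941 and 8971 bases for these genes. A match of letters is a description of the annotated end and does not show that this end was used in these oocytes.

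The comparison of MII with GV oocytes asks how these transcripts stood before and after maturation. Over both oocyte types, 6 of the 10 genes rose, 3 fell and Tet1 did not pass the test (the quasi-likelihood test of edgeR, with p adjusted over 11375 genes by Benjamini-Hochberg). The background was high, since 68.6% of all genes passed, with 31.7% of all genes rising and 36.9% falling. Dnmt3b rose most, 3.96-fold, followed by Tet3 at 3.42-fold, while Dnmt3l fell 2.20-fold. The median log2 fold change of the 10 genes was 0.59, against −0.10 over all genes tested. Libraries of the GV and MII stages did not overlap for Uhrf1, Dnmt3b and Tet3 above and for Dnmt3l below, beside 47.4% of all genes without overlap, 20.9% above and 26.5% below. All values in the following paragraphs are CPM by oocyte, in the order of the replicate numbers, and fold changes are from the same test.

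**Figure D1:**
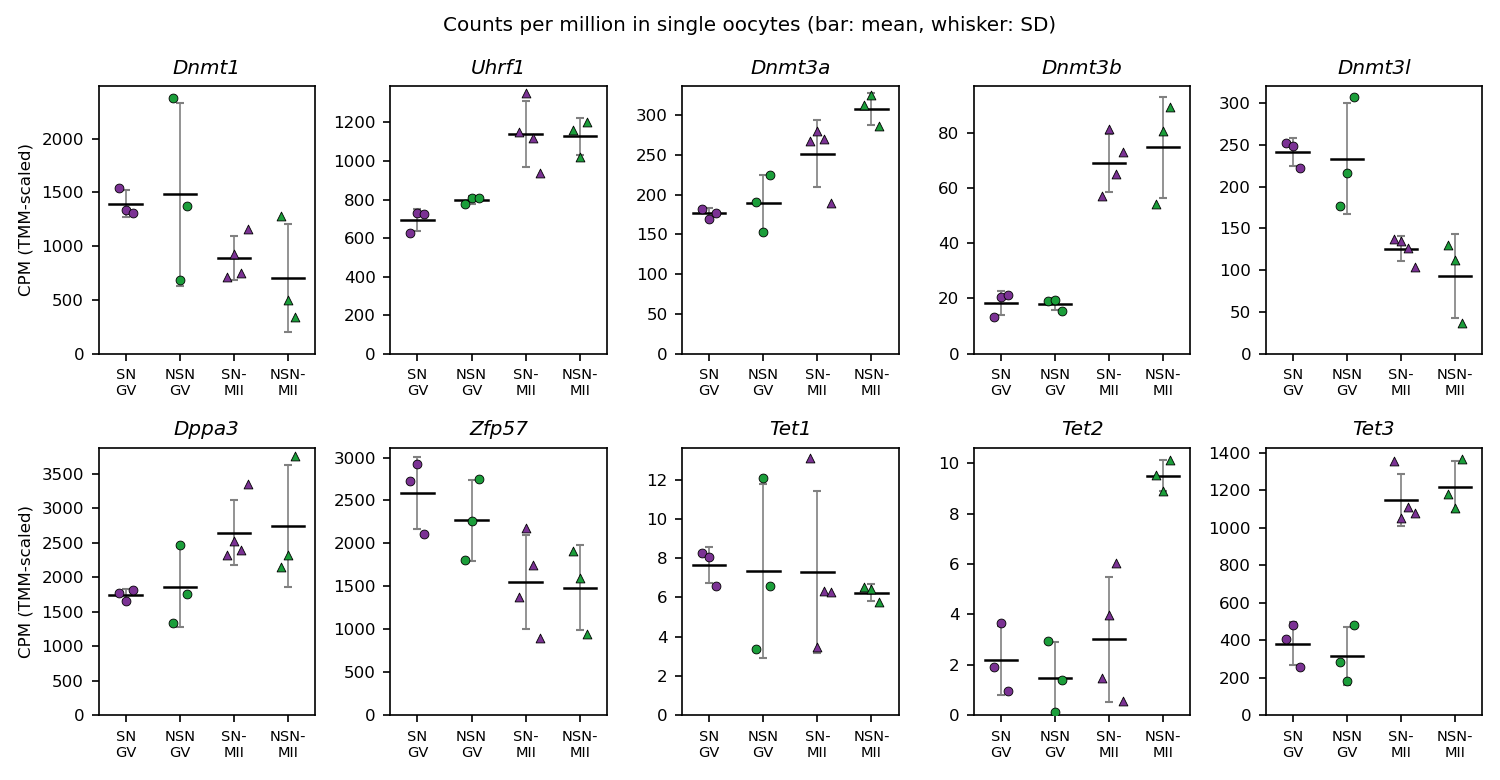
CPM (vertical axis, linear from 0) of the 10 genes in each single oocyte, with circles for GV, triangles for MII, purple for SN and green for NSN. Black bars give the group mean and grey whiskers the SD (n = 3, 3, 4 and 3). Uhrf1, Dnmt3b and Tet3 lie higher in all 7 MII oocytes than in all 6 GV oocytes, and Dnmt3l lies lower. SN and NSN oocytes of 1 stage overlap for all genes but Uhrf1 at GV and Dnmt3a and Tet2 at MII.

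Dnmt1, the maintenance methyltransferase (chr9:20907209-20959888), fell. Its levels were 1543, 1340.3 and 1306 CPM in SN GV oocytes and 2382, 683 and 1377 in NSN GV oocytes. At MII they were 712, 926, 749.7 and 1162 in SN-MII oocytes and 1279.7, 499 and 338 in NSN-MII oocytes. The stages overlapped, since 1 GV oocyte lay below 5 of the 7 MII oocytes, and both extremes at GV came from NSN oocytes. The log2 fold change was −0.86 (SE 0.29, adjusted p = 0.0150). Without the first NSN GV library, the one at 2382 CPM, it was −0.60 and no longer passed (adjusted p = 0.0702). Uhrf1, which reads half-methylated DNA for Dnmt1 (chr17:56303321-56323486), moved the other way. It stood at 628, 731 and 725 CPM in SN GV, 775, 810.1 and 805 in NSN GV, 1151, 1353, 1119 and 937 in SN-MII and 1159, 1021 and 1202 in NSN-MII oocytes. Every MII oocyte exceeded every GV oocyte, with a log2 fold change of 0.61 (SE 0.12, adjusted p = 0.000321). On the FPKM scale the ratio of Dnmt1 to Uhrf1 had a median of 1.21 over the 6 GV oocytes (0.633 to 1.99) and of 0.471 over the 7 MII oocytes (0.307 to 0.837).

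Among the genes of de novo methylation, both enzymes rose and the cofactor fell. Dnmt3a, the enzyme of the growing oocyte (chr12:3806007-3914443), stood at 183, 169 and 178 CPM in SN GV and 191, 154 and 225 in NSN GV oocytes. At MII it stood at 267, 281, 269.9 and 189.7 in SN-MII and 313, 325 and 286 in NSN-MII oocytes. All MII oocytes but the fourth SN-MII oocyte lay above the GV range, and the log2 fold change was 0.61 (SE 0.14, adjusted p = 0.000978). Dnmt3b, known mainly as the enzyme of the implanting embryo (chr2:153649450-153687730), was low at GV, with 13.3, 20.3 and 21.2 CPM in SN and 19.1, 19.3 and 15.5 in NSN oocytes. It reached 57.1, 81.5, 65.0 and 73.3 CPM in SN-MII and 54.2, 80.6 and 89.4 in NSN-MII oocytes. The stages were far apart, with a log2 fold change of 1.99 (SE 0.19, adjusted p = 1.05e-07), which was larger in size than 77.5% of all genes tested. Dnmt3l, the cofactor without catalytic activity (chr10:78041947-78063622), went from 253, 249 and 222 CPM in SN GV and 177, 217 and 307 in NSN GV oocytes to 137, 135, 126 and 104 in SN-MII and 131, 113 and 36.1 in NSN-MII oocytes. Each MII oocyte was below each GV oocyte, and the lowest was the third NSN-MII oocyte. The log2 fold change was −1.13 (SE 0.23, adjusted p = 0.000359), and without that library it was −0.96 (adjusted p = 3.07e-05). The FPKM ratio of Dnmt3l to Dnmt3a had a median of 2.64 at GV (2.0 to 2.92, n = 6) and of 0.779 at MII (0.241 to 1.21, n = 7). Within MII it was 0.779 to 1.21 in the 4 SN-MII and 0.241 to 0.736 in the 3 NSN-MII oocytes, a separation noticed after the values were seen and given without a test. The value of 0.241 was that of the third NSN-MII library, and without it the NSN-MII oocytes were at 0.57 and 0.736.

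The 2 protection genes moved in opposite directions. Dppa3 (chr6:122626410-122630272) had 1771, 1651 and 1818 CPM in SN GV, 1330.0, 2472 and 1754 in NSN GV, 2315, 2525, 2393 and 3347 in SN-MII and 2143, 2324 and 3755 in NSN-MII oocytes. Only the second NSN GV oocyte reached the MII range, and the highest value was that of the third NSN-MII library. The log2 fold change was 0.58 (SE 0.17, adjusted p = 0.00665), and 0.42 without that library (adjusted p = 0.0147). Zfp57 (chr17:37001163-37010635) had 2726, 2923 and 2109.6 CPM in SN GV, 1806, 2259 and 2745 in NSN GV, 1374, 2178, 1752 and 894 in SN-MII and 1908, 1601 and 947 in NSN-MII oocytes. The stages overlapped, with the lowest values in SN-MII replicate 4 and NSN-MII replicate 3. The log2 fold change was −0.68 (SE 0.21, adjusted p = 0.00787), and −0.57 without the third NSN-MII library (adjusted p = 0.0148).

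Of the Tet dioxygenases, Tet3, the maternal enzyme of the zygote (chr6:83362373-83459084), carried nearly all of the signal. Its levels were 403, 482 and 255 CPM in SN GV and 283, 181 and 481 in NSN GV oocytes. They were 1354, 1050.3, 1108 and 1079 CPM in SN-MII and 1182, 1103 and 1367 in NSN-MII oocytes. The lowest MII oocyte exceeded the highest GV oocyte by a wide gap, with a log2 fold change of 1.77 (SE 0.21, adjusted p = 1.25e-06), larger in size than 73.8% of all genes tested. Tet3 supplied a median of 90.0% of the summed FPKM of the 3 Tet genes at GV (81.5% to 93.6%) and 96.3% at MII (94.3% to 97.3%). Tet2 (chr3:133463679-133545139) was scarce, with 1 to 80 counts a library. It stood at 1.91, 3.66 and 0.957 CPM in SN GV, 2.94, 0.125 and 1.39 in NSN GV, 1.46, 3.98, 6.04 and 0.545 in SN-MII and 9.52, 8.90 and 10.1 in NSN-MII oocytes. The NSN-MII oocytes were above all others, and the remaining groups overlapped. Its stage change of 1.56 on the log2 scale had an SE of 0.60 (adjusted p = 0.0285). The call was lost without SN GV replicate 1 or 3 (adjusted p = 0.0572 and 0.0666), NSN GV replicate 3 (0.0501), SN-MII replicate 3 (0.0734) or NSN-MII replicate 1 (0.0538). Tet1 (chr10:62804570-62908996) was low and flat, at 3.36 to 12.1 CPM over the 6 GV and 3.47 to 13.1 over the 7 MII oocytes. Its log2 fold change was −0.15 with a 95% interval from −0.89 to 0.59 (adjusted p = 0.720).

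Of the 5 genes whose annotated 3′ ends held the cytoplasmic polyadenylation letters, Dnmt3a, Tet2 and Tet3 rose, Dnmt1 fell and Tet1 did not pass. Of the 5 without them, Uhrf1, Dnmt3b and Dppa3 rose and Dnmt3l and Zfp57 fell. With 5 genes on each side these counts are a description only.

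The scaling of the libraries bore on the smaller rises. With library totals alone, in place of TMM factors, the log2 fold changes of all genes shifted by a median of −0.29. Dnmt3a at 0.32 (adjusted p = 0.0710), Dppa3 at 0.27 (0.0759) and Tet2 at 1.25 (0.0894) then no longer passed edgeR's quasi-likelihood test, and no gene of the 10 changed direction. The calls of Dnmt3b, Tet3, Uhrf1, Dnmt3l, Dnmt1 and Zfp57 held.

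The stage change was also taken within each oocyte type. In SN oocytes 7 of the 10 genes were called, Uhrf1, Dnmt3a, Dnmt3b, Tet3 and Dppa3 higher and Dnmt3l and Zfp57 lower, beside 56.3% of all genes, 25.1% higher and 31.2% lower. In NSN oocytes 7 were called as well, Uhrf1, Dnmt3a, Dnmt3b, Tet3 and Tet2 higher and Dnmt3l and Dnmt1 lower, beside 56.3% again, 25.5% higher and 30.8% lower. Of all called genes 44.6% were higher at MII in SN oocytes, and 33.5% with library totals alone. Dnmt3b changed by 1.92 (SE 0.26) on the log2 scale in SN and 2.05 (SE 0.27) in NSN oocytes, and Tet3 by 1.59 (SE 0.29) and 1.95 (SE 0.30). Dnmt3l changed by −0.94 (SE 0.31) in SN and −1.33 (SE 0.34) in NSN oocytes. The calls of Dnmt3b, Tet3 and Dnmt3l in both types, of Uhrf1 in SN and of Dnmt3a in NSN oocytes held without any 1 library. Other settings still ended some of these calls. Dnmt3l in SN oocytes was lost with limma (adjusted p = 0.0527, 0.0599 and 0.128 in its 3 forms) and with the replicate block (0.0650), and Dnmt3a in NSN oocytes with library totals alone (0.41 in log2, adjusted p = 0.121).

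The other calls within a type changed when single libraries were left out. In SN oocytes Dnmt3a lost its call when any 1 of SN GV replicates 1, 2 and 3 or SN-MII replicates 1, 2 and 3 was left out (adjusted p from 0.0647 to 0.0925). Dppa3 lost it when any 1 of SN GV replicates 1, 2 and 3 or SN-MII replicates 2, 3 and 4 was left out (0.0503 to 0.122). Zfp57 lost it without SN GV replicate 1 or 2 or SN-MII replicate 1 or 4 (0.0771 to 0.109). With these, the count of 7 fell to 4 without SN GV replicate 1 or 2. With all libraries kept, Dppa3 in SN oocytes was lost with DESeq2 (adjusted p = 0.0765), its size factors (0.0754), library totals (0.183), the replicate block (0.132) and limma without a filter (0.145). Dnmt3a in SN oocytes was lost with library totals (0.376) and without the count filter (0.0598). Zfp57 in SN oocytes was lost with limma without a filter (0.0674) and with the block (0.111). In NSN oocytes Dnmt1 lost its call without 1 library in 10 of 13 cases (0.0511 to 0.301), Uhrf1 without NSN GV replicate 1 or NSN-MII replicate 1 or 3 (0.0531 to 0.0704), and Tet2 without NSN GV replicate 2 (0.0502). With library totals alone the change of Uhrf1 in NSN oocytes went from 0.50 to 0.20 in log2 (adjusted p = 0.336), and limma did not call it either (0.0980 on log2(FPKM + 1)). Dnmt1 in NSN oocytes was not called by limma (0.0726 on log2(FPKM + 1)). Dppa3 in NSN oocytes passed only without NSN GV replicate 2 or NSN-MII replicate 1 (0.0125 and 0.0337), and Zfp57 without NSN-MII replicate 1 (0.0410) or with library totals alone (0.0393).

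A gene called in 1 oocyte type and not in the other is not thereby shown to differ, and the interaction of type and stage tests that difference. None of the 10 genes passed it, and none had an unadjusted p under 0.05, beside 606 of 11375 genes with such a p and 0.0176% called. DESeq2 called none of the 10 either. The differences between the stage changes ranged from −0.42 for Dnmt1 to 2.19 for Tet2 on the log2 scale, and the 95% interval for Tet2 ran from −0.28 to 4.65.

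**Figure D2:**
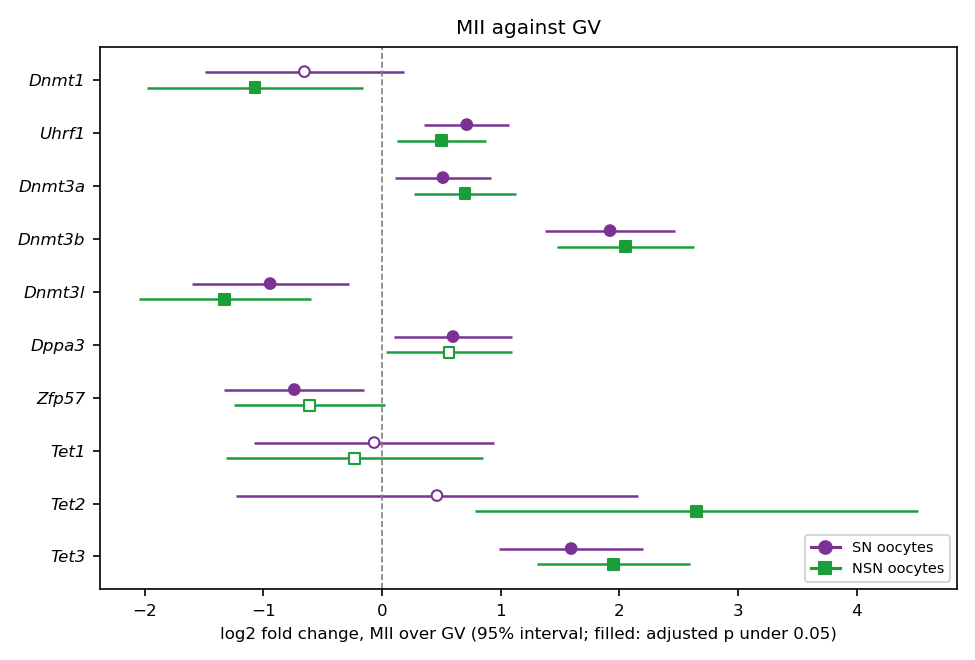
Log2 fold change of MII over GV (horizontal axis) for the 10 genes in SN (purple circles) and NSN oocytes (green squares), with 95% intervals and filled symbols for an adjusted p under 0.05 in edgeR's quasi-likelihood test. Dnmt3b and Tet3 lie far right of 0 in both types, Dnmt3l lies left in both, and the intervals of the types overlap for each gene.

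The comparison of NSN with SN oocytes at GV asks whether the 2 chromatin types differ in these transcripts before maturation. None of the 10 genes was called by edgeR's quasi-likelihood test, as for all 10839 genes tested, of which 0% were called. None of the 10 had an unadjusted p under 0.05, beside 190 of all genes, and neither DESeq2 nor limma called any of the 10. Uhrf1 was the 1 gene whose groups did not overlap, with 3 NSN oocytes above 3 SN oocytes, beside 6.57% of all genes without overlap and 3.35% in that direction. Its log2 fold change was 0.22, with a 95% interval from −0.11 to 0.54. For 5 of the 10 genes, Uhrf1 included, the interval lay within 1.5-fold in both directions. For Dnmt3l the interval ran from −0.48 to 0.41, for Dnmt3a from −0.30 to 0.55, for Zfp57 from −0.55 to 0.21 and for Dppa3 from −0.35 to 0.53. Dnmt1 had an interval from −0.76 to 1.04, Tet3 from −1.03 to 0.54 and Tet2 from −2.61 to 1.69. For Dnmt1, Dnmt3b, Tet1 and Tet2 differences beyond 1.5-fold in either direction, and for Tet3 a lower level in NSN oocytes beyond 1.5-fold, lay inside the interval.

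At MII none of the 10 genes was called between NSN-MII and SN-MII oocytes, beside 0.259% of 10028 genes, and DESeq2 and limma called none. Tet2 was the 1 gene with an unadjusted p under 0.05, beside 941 of all genes. In CPM scaled on the MII libraries alone it was also the 1 gene without overlap, beside 10.2% of all genes without overlap and 4.63% with NSN-MII above. Its log2 fold change was 1.65, with a 95% interval from 0.27 to 3.02 and an adjusted p of 0.404. On the FPKM scale the same oocytes overlapped, at 0.970, 0.950 and 2.96 FPKM in NSN-MII and 0.140, 1.33, 0.760 and 0.05 in SN-MII oocytes. Dnmt3a lay 0.29 higher (−0.09 to 0.66) and Dnmt3l 0.42 lower in NSN-MII oocytes, with a change of −0.42 (−1.17 to 0.33). Without the third NSN-MII library the change of Dnmt3l was −0.04, and that of Dnmt1 went from −0.32 (−1.13 to 0.49) to 0.01. The genes with the narrowest intervals were Tet3, with a change of 0.08 (−0.24 to 0.40), and Uhrf1, with a change of −0.02 (−0.36 to 0.32), whose sign turned with library totals (0.01) and with limma on FPKM (0.03). Without the third NSN-MII library 233 of all genes were called, but still none of the 10.

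**Figure D3:**
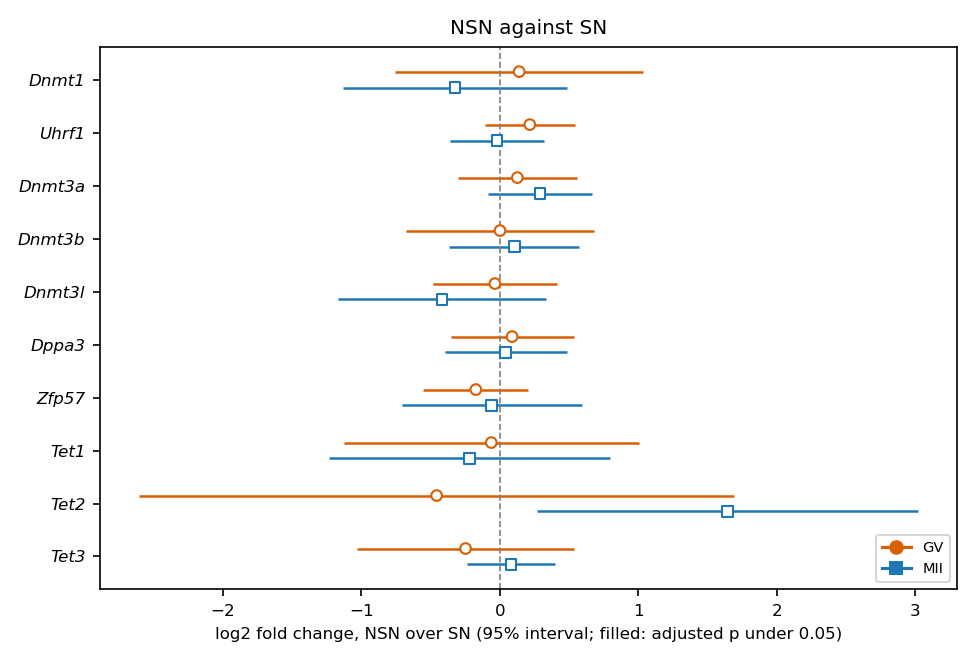
Log2 fold change of NSN over SN oocytes (horizontal axis) for the 10 genes at GV (orange circles) and at MII (blue squares), with 95% intervals. All symbols are open, since no gene had an adjusted p under 0.05, and Tet2 at MII is the 1 gene whose interval leaves out 0.

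Dnmt1 varied widely between single NSN oocytes. In NSN GV oocytes the highest value was 3.49 times the lowest and in NSN-MII oocytes 3.79 times, against 1.18 times in SN GV and 1.63 times in SN-MII oocytes. The lowest NSN-MII value, 338 CPM, was that of the third NSN-MII library, and the other NSN-MII oocytes stood at 1279.7 and 499 CPM. The NSN-MII ratio and the NSN-MII SD below include that library. The SD of log2(CPM + 0.5) of Dnmt1 was 0.90 in NSN GV oocytes, larger than for 85.5% of all genes tested, and 0.99 in NSN-MII oocytes, larger than for 86.8%. It was 0.13 in SN GV oocytes, where 17.5% of genes had a smaller one. The median over all genes was itself larger in NSN GV than in SN GV oocytes, 0.43 against 0.28. Dnmt3l in NSN-MII oocytes had an SD of 1.01, with the third library at 36.1 CPM. Uhrf1 in NSN GV oocytes was at the other end, with a highest value close to the lowest (810.1 against 775 CPM). Whether the spread of Dnmt1 differs between the types was not tested, and the groups hold 3 or 4 oocytes.

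The 2 deposited units did not move together for every gene. RSEM divides a gene's count by the effective length of the transcripts it assigned reads to, so that the count over the FPKM value, scaled on 125 genes with a single annotated transcript, gives an implied transcript length. In each library 97.6% of those 125 genes came out within 10% of their annotated length. The same genes set the scale, so this is their spread around it and not a separate check. Only long transcripts were among them, so lengths of short ones, such as that of Dppa3, were not checked. For Tet3 the implied length was 4375 to 6805 bases over the 6 GV oocytes (median 5983) and 7459 to 8971 over the 7 MII oocytes (median 8391). The stages did not overlap, as for 9.49% of the 5323 genes with at least 50 counts in every library, and the shift of Tet3 was larger than for 95.6% of them. Annotated coding transcripts of Tet3 are between 469 and 10904 bases long. Tet3 rose less on the FPKM scale, from a median of 53.9 FPKM at GV to 128 at MII, than in CPM, from 343 to 1108. The units differ in the length, in the TMM factors, which only CPM carry, and in the library total. The totals implied by the FPKM values were 8238890 to 8943480 at GV, against count totals of 7140416 to 7932432. At MII they were 7615060 to 9036990, against 7419438 to 8846287. The implied length of Tet3 shifted by 0.50 in log2 from GV to MII, and the shares of the other parts in this gap were not separated.

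Dnmt3a shifted the other way, with an implied length of 2717 to 3014 bases at GV and 2294 to 2548 at MII, also without overlap and larger than for 87.6% of genes. Dppa3, Zfp57, Uhrf1 and Dnmt3b kept overlapping lengths, such as a median of 676 bases at GV and 679 at MII for Dppa3. For Dnmt1 NSN-MII replicates 2 and 3 gave 3430 and 3088 bases, and SN-MII replicate 1 gave 4402. The other 4 MII oocytes gave 5031.5 to 5278 bases. The 2 shortest lengths belonged to the 2 oocytes with the least Dnmt1. For Tet1 the implied length was 969 to 1434 bases at GV and 1217 to 1941 at MII, against annotated coding transcripts of up to 14369 bases. Its place above Dnmt3b in FPKM at GV rests on that length, since in CPM every GV oocyte had less Tet1 (3.36 to 12.1) than Dnmt3b (13.3 to 21.2). Implied lengths of Tet2, between 1576 and 11524 bases, rested on few reads. This measure was added after the values were seen, and the cause of the shifts was not tested.

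**Figure D4:**
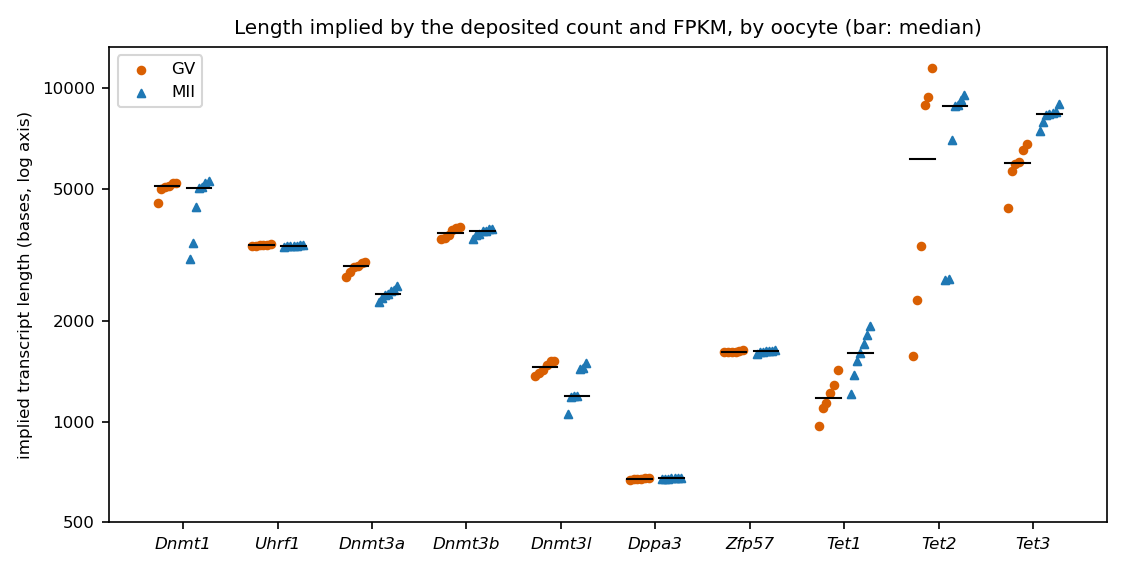
Implied transcript length in bases (vertical axis, log scale) of the 10 genes in each of the 6 GV (orange circles) and 7 MII oocytes (blue triangles), with black bars for the median. Tet3 lies higher at MII and Dnmt3a lower, both without overlap, and Dppa3, Zfp57 and Uhrf1 stay level.

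The other genes of the pathway were taken as 6 lists of 44 partner genes. Over both oocyte types, 24 of 41 tested partners rose at MII, 11 fell and 6 did not pass, with a median log2 fold change of 1.0. Over all genes tested 31.7% rose and 36.9% fell, with a median of −0.10, and the counts of each list stand against the same shares. Of the list of maintenance methylation partners 5 of 7 rose and 1 fell. Trdmt1, a tRNA methyltransferase placed in this list, was 1 of the 5 (1.03, adjusted p = 0.00183). The most changed were Hells, a chromatin remodeller needed for methylation, with a log2 fold change of 1.55 (adjusted p = 1.31e-07), and Dmap1, a protein that binds Dnmt1, with −4.47 (adjusted p = 4.25e-09). Dmap1 went from 124 to 160.4 CPM over the GV oocytes to 1.5 to 9.55 over the MII oocytes. Of the list of methyl-CpG readers and related proteins, 2 of 7 tested rose and 4 fell, the one list whose median was below 0, at −1.15. Mbd1 changed by −3.13 (adjusted p = 6.13e-06) and Mbd3, listed by protein family and not as a reader itself, by −2.92 (adjusted p = 2.16e-05). Both rested on few reads at MII, with 3 to 34 counts a library for Mbd1 and 3 to 13 for Mbd3. Of the chromatin enzymes that guide de novo methylation 4 of 5 tested rose and none fell, among them the histone demethylase Kdm1a with 1.26 (adjusted p = 0.000228) and the histone methyltransferase Ehmt1 with 1.24 (adjusted p = 9.03e-05).

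Of the partners in imprint protection 4 of 6 rose and 1 fell, with Zfp445, a second zinc finger protein of imprints, at 1.72 (adjusted p = 0.000131) and the chromatin remodeller Atrx at 1.21 (adjusted p = 0.000131). Zfp445 thus rose where Zfp57 fell. Of the genes for active demethylation beyond the Tet enzymes 5 of 10 tested rose and 3 fell. The base excision repair genes Neil2, a glycosylase, and Apex1, an endonuclease, changed by −4.26 (adjusted p = 1.11e-08) and −1.84 (adjusted p = 1.31e-06). Of the genes in the supply and use of S-adenosylmethionine, the methyl donor, 4 of 6 rose and 2 fell. Amd1, which draws it into polyamine synthesis and does not supply it, changed by 1.59 (adjusted p = 5.92e-08). Ahcy, which clears its product, changed by −2.37 (adjusted p = 1.67e-06). Between NSN and SN oocytes no partner was called, of 39 tested at GV and 37 at MII, and 1 and 5 of them had an unadjusted p under 0.05. Over all genes 0 of 10839 and 26 of 10028 were called, and 190 and 941 had such a p.

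**Figure D5:**
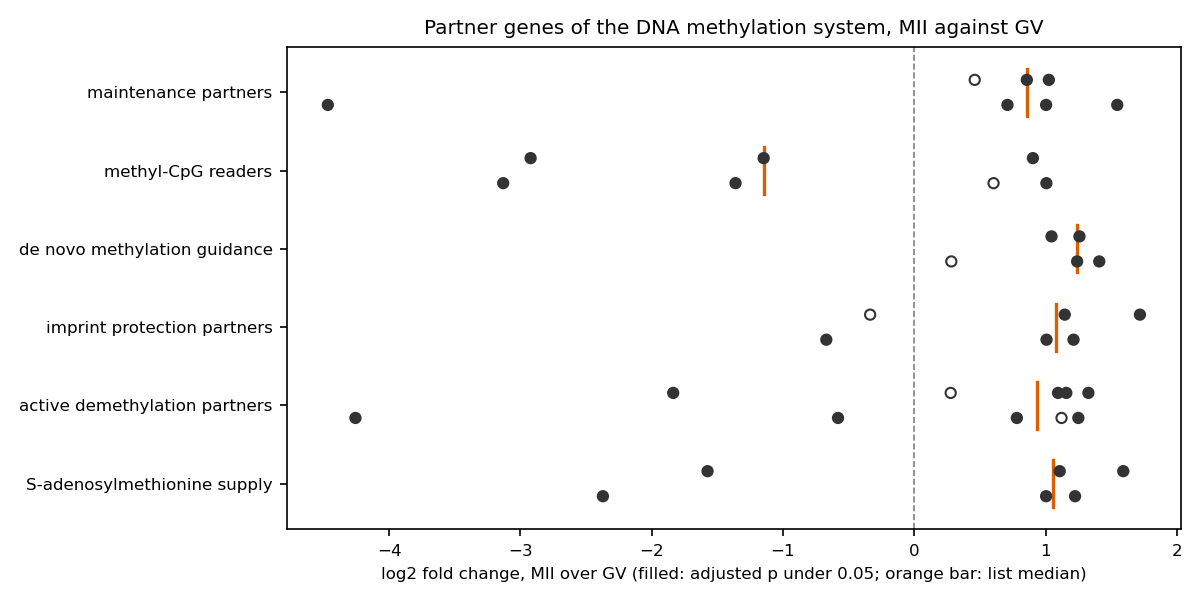
Log2 fold change of MII over GV (horizontal axis) for the tested partner genes of 6 lists, each point 1 gene, filled where the adjusted p was under 0.05, with an orange bar at the list median. The medians lie right of 0 for all lists but the methyl-CpG readers, and Dmap1 and Neil2 lie farthest left.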

How the data were processed

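Single oocyte cDNA was amplified with SMART-seq2, fragmented with Tn5 and sequenced. Per the submitters' processing notes the tools were Trim Galore 0.4.4, Bowtie2 2.3.5, RSEM 1.2.28 and DESeq2 1.20.0, with build mm10. The authors deposited RSEM expected counts, 1 table per stage, in which reads of several genes are shared out, and FPKM values for all libraries. SMART-seq2 carries no molecular identifiers, so counting error is part of the error only. A strand-specific step is not given in the sources used here, and reads of overlapping genes and near copies cannot be told apart.

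Estimated counts were rounded and filtered by filterByExpr, and TMM factors were computed with edgeR 4.0.16 under R 4.3.3. CPM are these counts over TMM-scaled totals. NSN and SN were compared within a stage, and stages in 1 model of 4 groups, with the quasi-likelihood test of edgeR, and p was adjusted by Benjamini-Hochberg over all genes tested and called under 0.05. Intervals are 95%. All 10 genes are in the count tables and passed the count filter of every comparison, so a separate FPKM test of uncounted genes was not needed. DESeq2 1.42.0 and limma 3.58.1 (trend, log2(FPKM + 1), mean FPKM of at least 1) were alternatives, beside other scalings, no filter, a pseudocount of 0.1, a fold minimum of 1.5, the replicate number as a block and leaving out each library. The steps were tested on simulated data. The 10 genes and all lists were chosen with earlier results of these data known. Partners were named if called between types, or if among the 2 largest called stage changes per list whose libraries did not overlap.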

Additional observations from a re-analysis of the deposited data

Results flagged for a closer look

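Dnmt3a in SN-MII oocytes held a library far from the others. The fourth oocyte had 189.7 CPM and the other three 267 to 281, so that the gap to the nearest oocyte was 0.856 of the whole range of the group. Among 10 genes looked at in this group of 4, chance flags about 1 in 20, and 1 was flagged. Without this library the log2 fold change of MII over GV in SN oocytes was 0.63.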

How the results depend on the processing

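The count of genes called among the 10 was 0 between NSN and SN oocytes at GV, at MII and in the interaction under every alternative run. Over both oocyte types it was 9, and between 6 and 9 in the alternatives, the lowest with library totals. Leaving out 1 library gave 8 to 9. In SN oocytes the count of 7 became 4 with limma without a filter and 4 with the replicate block, and 4 to 7 without 1 library. In NSN oocytes the count of 7 became 4 with limma on log2(FPKM + 1), 4 on log2(FPKM + 0.1) and 4 without a filter, and 5 to 8 without 1 library. With means under 1 FPKM, Tet2 was not tested by limma after the filter at GV or in the fits of both stages. Its stage change in limma without a filter was 0.43 (adjusted p = 0.253). At MII its mean was 1.02 FPKM, so limma tested it there and did not call it. The cause of these moves was not tested otherwise.

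Replicate numbers occur in each group, but same-numbered oocytes did not deviate together: the correlations of NSN with SN deviations were −0.21, −0.19 and −0.46 at GV and 0.03, 0.10 and −0.13 at MII. With the replicate number as a block 9 of the 10 genes were called over both types, and the pairing has no base in the labels.

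Between types, differences near 0 changed sign. At GV, Dnmt3b (0.00 in log2) was −0.00308 with DESeq2, −0.00086 with its size factors, −0.00936 without a filter, −0.00225 with limma and without its filter, and −0.020 in the fit of all groups. Tet2 was 0.21 with limma without a filter and Dnmt1 −0.068 with the replicate block. At MII, Uhrf1 was 0.010 with library totals, 0.033 with limma, 0.034 with the smaller pseudocount and 0.033 without a filter. Without 1 library the ranges at GV were −0.47 to 0.49 for Dnmt1, −0.19 to 0.15 for Dnmt3b, −0.26 to 0.087 for Dnmt3l, −0.15 to 0.24 for Dppa3, −0.60 to 0.26 for Tet1, −1.53 to 0.11 for Tet2 and −0.65 to 0.040 for Tet3. At MII they were −1.09 to 0.014 for Dnmt1, −0.028 to 0.29 for Dnmt3b, −0.23 to 0.19 for Dppa3, −0.45 to 0.22 for Tet1, −0.11 to 0.077 for Uhrf1 and −0.29 to 0.19 for Zfp57. Between stages, Tet1 ranged from −0.37 to 0.13 over both types, −0.51 to 0.17 in SN and −0.58 to 0.33 in NSN oocytes, and Tet2 in SN oocytes from −0.12 to 1.06.

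Over all genes, the 26 called between types at MII became 221 with DESeq2, 89 without a filter, 69 in the fit of all groups, 16 with library totals, 4 and 2 with limma, 2 with the block and 2 to 233 without 1 library. The 2 called in the interaction became 36 with DESeq2 and 0 to 12 without 1 library. The depth limits Tet2 most, with as few as 1 count in a library.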
